A study of Gallus gallus with 16 samples.

Results

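The cells described here are E2 cells and negative cells sorted from the vagal region of chick embryos at the earliest stage of the series. They were chosen by their labels, and they make up 4 of the 16 libraries, 2 of each kind. E2 cells carried signal of the E2 reporter and not of the NC2 reporter. Negative cells carried neither signal. All 4 libraries are wild-type embryos, and all the embryos had been electroporated at HH4 with both reporters, for each of which the labels give citrine. HH stands for the Hamburger-Hamilton stages of chick development. The sample records give the stage as HH10, used here, while the series text and the columns of the count table give HH12. Negative cells can include cells that took up no construct as well as cells in which neither enhancer was active, and the labels do not separate these. Later groups, used here for comparison, are E2, negative and double-positive (DP, both signals) cells at HH18 and HH25, from embryos electroporated at HH8 or HH9.

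As background, the neural crest forms at the border of the neural plate, leaves the dorsal neural tube by an epithelial-to-mesenchymal transition and migrates through the embryo. Crest of the vagal level is known for supplying most of the enteric nervous system and part of the outflow tract of the heart. E2 is an enhancer of SOX10, a transcription factor gene that is switched on as crest cells leave the neural tube, and NC2 is an enhancer of FOXD3, a transcription factor gene of early crest. The comparison asks how cells with an active SOX10 enhancer differ from the unlabelled cells of the same dissection, which can hold neural tube, ectoderm, mesoderm and endoderm. The files used here do not pair gene identifiers with names, and a list of 25635 chicken genes at hand shared 0 identifiers with the count table. Neither SOX10, FOXD3 nor the markers of any cell type were looked up, so the sorted populations are called by their labels only, and genes are given by identifier or by position on galGal5.

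Total counts were 12416163 and 45313160 in E2 libraries 1 and 3, and 22574825 and 39385794 in negative libraries 1 and 3, numbered as in the table's columns. The E2 libraries stood apart from the negative ones in how many genes they held. With each library thinned to 4032540 counts, 11319 and 12199 genes had a count in E2 libraries 1 and 3, and 13498 and 14124 in negative libraries 1 and 3. The 12 later libraries lay between 12169 and 13817. With 2 against 2 libraries the smallest two-sided p of an exact permutation test is 0.333, so the groups' lack of overlap here carries no significance. Of the 14676 genes tested, 1781 had no count in either E2 library and 350 had none in either negative library.

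The E2 libraries also differed from each other more than the negative libraries did. Among tested genes, 345 had no count in E2 library 1 and at least 5 CPM in E2 library 3, where CPM are counts scaled to library size with TMM factors. Another 127 had no count in E2 library 3 and at least 5 CPM in E2 library 1. No gene met either condition in the negative libraries. In the other groups between 5 and 410 genes did so, with the 410 in HH25 negative cells. Of the 472 genes with this split in E2 cells, 372 had at least 1 CPM in both negative libraries and 3 had no count in either. Across genes, which are not independent replicates, log2 CPM of E2 library 1 correlated at 0.870 with E2 library 3 and at 0.881 with negative library 1. E2 library 3 correlated at 0.901 with negative library 3 and at 0.880 with negative library 1. Between E2 library 1 and negative library 3 the value was 0.862, and between the negative libraries it was 0.960. Libraries of the same number resembled each other in composition too. The count-weighted median genomic span of the genes read was 11259 bp in E2 library 1 and 11891 bp in negative library 1. It was 14400 bp in E2 library 3 and 14438 bp in negative library 3. This was not particular to HH10: the HH25 DP library numbered 3 had 15215 bp, and no library of another number exceeded 12323 bp. Differences are therefore given below within each library number as well.

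**Figure D1:**
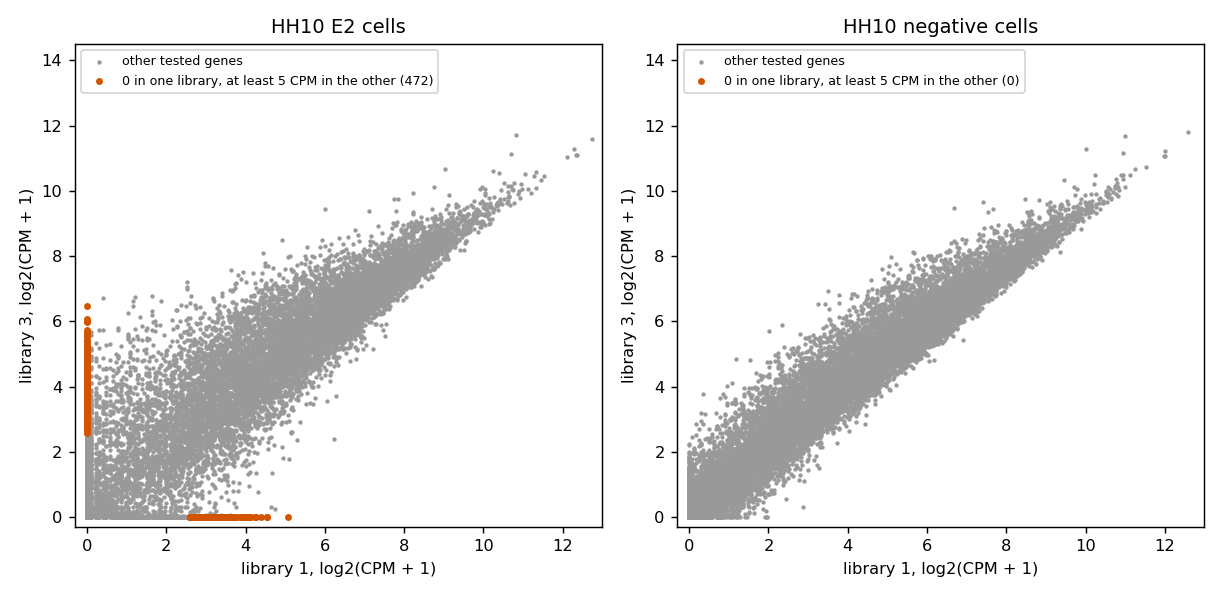
Level of every tested gene, as log2(CPM + 1), in library 1 (horizontal axis) and library 3 (vertical axis) of HH10 E2 cells (left) and HH10 negative cells (right); orange points are genes with no count in one library and at least 5 CPM in the other. E2 cells have 472 such genes along the axes and negative cells have 0.

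E2 cells differed from negative cells in 243 of 14676 genes, or 1.66%, and most of the difference lay in genes that were lower in E2 cells. There were 35 higher genes (0.238% of those tested) and 208 lower genes (1.42%) at a Benjamini-Hochberg adjusted p below 0.05 in edgeR's quasi-likelihood test. Of the lower genes, 125 and 111 had no count in E2 libraries 1 and 3, as did 3240 and 2294 of all tested genes. In negative libraries 1 and 3, 4 and 1 of the higher genes had none, as did 1000 and 487 of all tested genes. Whether the smaller number of genes seen in the E2 libraries adds to the lower calls was not tested. The libraries of the groups did not overlap at any of the 243 genes, as at 37.6% of all tested genes. Leaving out a library, or comparing within a library number, can therefore hardly change the direction of these genes. The median log2 fold change was 2.74 over the higher genes, -7.46 over the lower genes and -0.05 over all tested genes. With lower genes that had no count in E2 cells set at the bound given further on, the median of the lower genes was -5.33. Within library number 1 the median difference of log2(CPM + 1), E2 minus negative, was 2.25 for the higher and -2.42 for the lower genes. Within library number 3 it was 2.24 and -2.56. These medians are a description, because the same libraries made the calls. In these sorted bulk samples, fewer cells of a type and less RNA per cell cannot be told apart. The count was 242 without E2 library 1 (24 higher, 218 lower), 354 without E2 library 3 (35 and 319), 127 without negative library 1 (3 and 124) and 131 without negative library 3 (7 and 124). Of the 243 genes, 134, 121, 121 and 129 were called again in these fits, in that order, and all 243 kept their direction. With the 4 HH10 libraries alone edgeR called 0 genes, with 1528 at an unadjusted p below 0.05, while DESeq2 on all libraries called 793, which included all 243. The main fit estimated each gene's spread over all 8 groups, so the 243 calls also rest on libraries of later stages. Genes with no count in 1 library and at least 5 CPM in the other made up 3.22% of tested genes in HH10 E2 cells, and at most 2.79% in any other group. A shared spread can be too small for such a group.

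**Figure D2:**
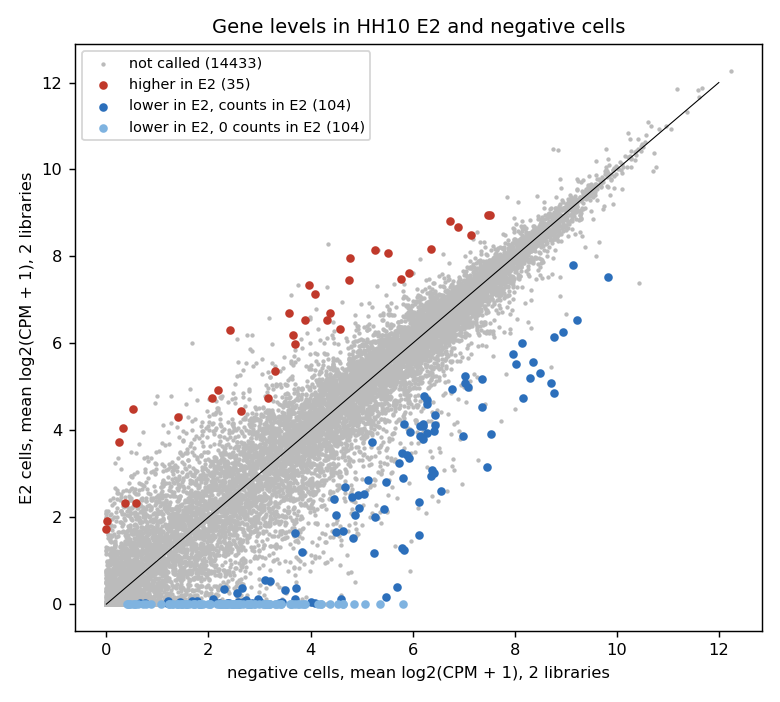
Mean level of each tested gene, as log2(CPM + 1), in HH10 E2 cells (vertical axis) and HH10 negative cells (horizontal axis), 2 libraries each; the line marks equal levels. The 35 higher genes lie above the line over a range of levels, 104 lower genes lie below it, and another 104 lower genes sit at 0 in E2 cells.

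Genes higher in E2 cells were mostly present in negative cells at a lower level. Their median level was 96.6 and 86.8 CPM in E2 libraries 1 and 3, against 13.6 and 12.7 CPM in negative libraries 1 and 3. Their mean level was at least 10 CPM in E2 cells for 31 of the 35 genes and in negative cells for 21. Of the 35, 26 were at least 4-fold higher. The 2 with the highest CPM in E2 cells, not divided by gene length, were chosen as examples.

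ENSGALG00000017644, on chromosome 11 (minus strand, 17047246 to 17065341, with 4 exon intervals), had 602 and 382 CPM in E2 libraries 1 and 3, against 214 and 150 CPM in negative libraries 1 and 3. Every E2 library lay above every negative library, by a log2 fold change of 1.43 ± 0.33 (SE; edgeR adjusted p = 0.047). The call ended without E2 library 1 (adjusted p = 0.29), negative library 1 (0.10) or negative library 3 (0.34). It also ended with DESeq2-type size factors (0.053), with only E2 and negative libraries in the fit (0.051) and after thinning all libraries to equal depth (0.068). ENSGALG00000032590, on chromosome 14 (plus strand, 7595438 to 7607561, with 9 exon intervals), had 538 and 445 CPM in E2 libraries 1 and 3 and 220 and 134 CPM in negative libraries 1 and 3. Its groups did not overlap either, with a log2 fold change of 1.47 ± 0.30 (SE; edgeR adjusted p = 0.023), and this call ended without E2 library 1 (0.12) or negative library 3 (0.24). Within library numbers 1 and 3 the difference of log2(CPM + 1) was 1.49 and 1.34 for the first gene and 1.28 and 1.73 for the second.

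Genes lower in E2 cells are split here into those with and those without any count in the E2 libraries. A total of 104 kept counts in E2 cells, 76 of them in both E2 libraries and 28 in only 1. Their median level was 4.58 and 4.95 CPM in E2 libraries 1 and 3, against 36.7 and 44.2 CPM in negative libraries 1 and 3. Some were close to 0 as well: 69 of these 104 genes averaged at least 1 CPM in E2 cells, and the lowest mean was 0.0102 CPM. The other 104 had no count in either E2 library, and their median was 3.58 and 5.07 CPM in negative libraries 1 and 3. For these the fold is a lower bound for counting error only, set against 3 counts over both E2 libraries (0.0489 CPM). At the median gene that bound was 93.5-fold. It does not cover the spread between E2 libraries, where 472 tested genes had no count in 1 library and at least 5 CPM in the other. All 23 lower genes that averaged 100 CPM or more in negative cells kept counts in E2 cells. Counting every tested gene, 63 had no count in E2 cells and at least 5 CPM in each negative library, of which 35 were called. No gene had the opposite pattern of no count in negative cells and at least 5 CPM in each E2 library.

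ENSGALG00000006343 had the highest CPM in negative cells of all lower genes. It lies on chromosome 6 (minus strand, 19231810 to 19241381, with 9 exon intervals). It had 169 and 197 CPM in E2 libraries 1 and 3, against 1091 and 730 CPM in negative libraries 1 and 3, a log2 fold change of -2.31 ± 0.46 (SE; edgeR adjusted p = 0.019). The lower negative library was still well above both E2 libraries, but the call ended without E2 library 1 (adjusted p = 0.12), E2 library 3 (0.057) or negative library 1 (0.11). ENSGALG00000033256 followed it in CPM. This gene of chromosome Z (plus strand, 37062725 to 37257739, with 23 exon intervals) had 86.0 and 98.9 CPM in E2 libraries 1 and 3 and 531 and 668 CPM in negative libraries 1 and 3. The log2 fold change was -2.70 ± 0.62 (SE; edgeR adjusted p = 0.046), and no call remained with any 1 of the 4 libraries left out (adjusted p between 0.10 and 0.18). Within library numbers 1 and 3 the difference was -2.68 and -1.89 for the first of these genes and -2.61 and -2.74 for the second.

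Some of the lower genes were neighbours on a chromosome: among tested genes in chromosomal order, 9 adjacent pairs were both lower in E2 cells. Whether this is more than a list of this length gives was not tested. The pair with the highest summed level lies on the plus strand of chromosome 12 (5812606 to 5882308). Together its genes had 64.0 and 59.8 CPM in E2 libraries 1 and 3 and 533 and 663 CPM in negative libraries 1 and 3. A pair on the minus strand of chromosome 1 (43969658 to 43999595) had 9.33 and 14.3 CPM in E2 libraries 1 and 3 and 143 and 111 CPM in negative libraries 1 and 3. These sums hide a split: the gene starting at 43987396 had 0 CPM in E2 library 1 and 3.975 CPM in E2 library 3. The gene starting at 43969658 had 9.33 and 10.36 CPM there. Both pairs were chosen after their values were seen. The genes of these pairs do not overlap in their annotated positions, and whether they share reads as near copies was not tested.

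The share of lower calls was larger among long genes, and genes of low level lay lower as a whole; neither was tested against the other classes. Of the tested genes that span over 100 kb, 2.76% were lower and 0.409% higher in E2 cells, while of those under 10 kb 1.13% were lower and 0.253% higher. The median log2 fold change over all tested genes of these classes was -0.27 for the long and 0.00 for the short genes. Genes with a mean under 1 CPM over the 16 libraries had a median log2 fold change of -1.47, yet 0 of these 2045 genes were called by edgeR. A gene this low can pass the filter through the few libraries where it has counts. Of all tested genes, 3240 and 2294 had no count in E2 libraries 1 and 3, and 1000 and 487 in negative libraries 1 and 3. The median of this class can thus follow in part from the filter, and is a description. Genes that span over 100 kb held 3.02% and 4.486% of the counts of tested genes in E2 libraries 1 and 3. In negative libraries 1 and 3 they held 3.543% and 4.805%. Within each library number this share was thus smaller in the E2 library, while across numbers it was larger in E2 library 3 than in negative library 1. Whether the smaller number of genes seen in the E2 libraries has a part in the shifts of log2 fold change was not tested. By exonic length, 0.449% of genes under 1 kb were lower, against 1.68% at 1 to 2 kb, 1.5% at 2 to 4 kb and 1.84% over 4 kb. Higher calls made up 0.262% of genes under 1 kb and 0.105% of those over 4 kb. By exon number the shares of lower calls lay close together, with 1.54% of genes of 1 exon interval and 1.37% of those of over 15 lower.

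In birds the W chromosome is carried by females alone. Counts on W, not TMM-scaled, amounted to 305 and 370 CPM in E2 libraries 1 and 3 and to 471 and 412 CPM in negative libraries 1 and 3. Only 23 genes of W were tested, too few to read anything from the 0 of them called by edgeR when 1.66% of all tested genes were. Chromosome Z held 16 of the 208 lower genes (7.69%) and 2 of the 35 higher genes (5.71%), against 4.96% of tested genes. Of the tested genes of Z, 2.2% were lower. That share was larger on chromosomes 22 (2.36%), 13 (2.75%), 24 (2.86%) and 25 (3.03%), and smaller on all the rest. The part of embryo sex in these values was not tested.

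Most differences of HH10 were not seen as calls at HH18 or HH25, where E2 and negative cells of other libraries were compared in the same fit. Embryos of HH10 were electroporated at HH4 and those of HH18 and HH25 at HH8 or HH9. Stage and time of electroporation cannot be told apart, here or in the comparisons of stages below. Over all tested genes 0.79% were called at HH18 and 2.88% at HH25, in either direction. Of the 208 lower genes, 12 were lower at HH18 (5.77%, against 0.736% of all tested genes) and 17 were lower at HH25 (8.17%, against 1.04%). At HH18, 0 were called higher in E2 cells by edgeR (0.0545% of tested genes were), and at HH25 7 were (3.37%, against 1.84%). The median log2 fold change of the 208 genes was -0.54 at HH18 and -0.20 at HH25, against 0.01 and 0.00 over all tested genes. Of the 35 higher genes, 2 were higher again at HH18 (5.71%, against 0.0545% of all tested genes) and 4 at HH25 (11.4%, against 1.84%). No gene was among both sets. Their median log2 fold change was 1.03 at HH18 and 0.49 at HH25, and the HH25 value turned to -0.18 without HH10 negative library 1 and to -1.25 without HH10 negative library 3, fits in which only 3 and 7 higher genes were called.

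**Figure D3:**
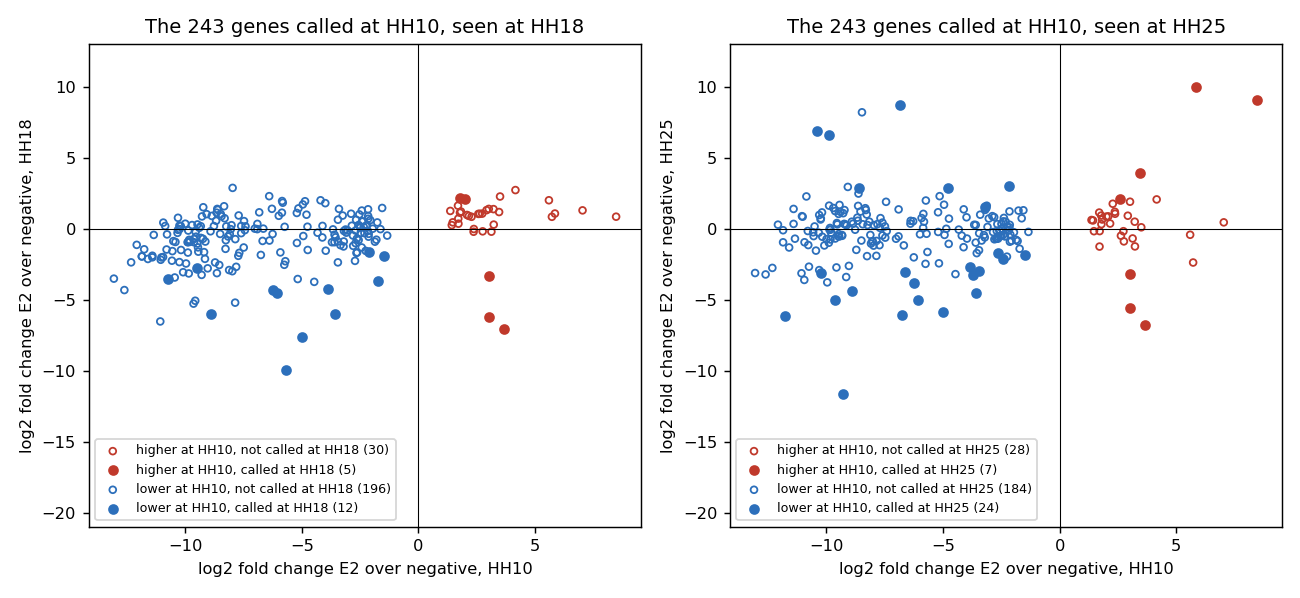
Log2 fold change of E2 over negative cells at HH10 (horizontal axis) and at HH18 (left) or HH25 (right, vertical axes) for the 243 genes called at HH10; filled points are called at the later stage. The lower genes have a median of -0.54 at HH18 and -0.20 at HH25, and 3 genes that were higher at HH10 lie well below 0 at both later stages.

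Levels of the lower genes in E2 and negative cells lay closer together at later stages. The genes were chosen by their gap in the HH10 libraries, so a smaller gap in other libraries partly follows from the choice. The median level of the 208 genes was 0 CPM in both HH10 E2 libraries and 7.34 and 9.48 CPM in HH10 negative libraries 1 and 3. It was 7.33 and 8.22 CPM in the HH18 E2 libraries and 18 and 12.9 CPM in the HH18 negative libraries. At HH25 it was 15.4 and 14.6 CPM in E2 and 22 and 23.1 CPM in negative libraries. Of the 104 genes with no count in HH10 E2 cells, all but 4 and 3 had counts in the HH18 E2 libraries. In the HH25 E2 libraries all but 1 and 5 did. Of all 14676 tested genes, 1300 and 822 had no count in the HH18 E2 libraries, and 1043 and 1761 in the HH25 E2 libraries. The 104 genes were chosen for no count in HH10 E2 cells and needed counts elsewhere to be tested. Their later counts can thus follow in part from the choice. The 35 higher genes were at 65.5 and 63.4 CPM in the HH18 E2 and 39.3 CPM in both HH18 negative libraries. At HH25 the median was 32.6 and 30.8 CPM in E2 and 40.2 and 49.6 CPM in negative libraries.

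**Figure D4:**
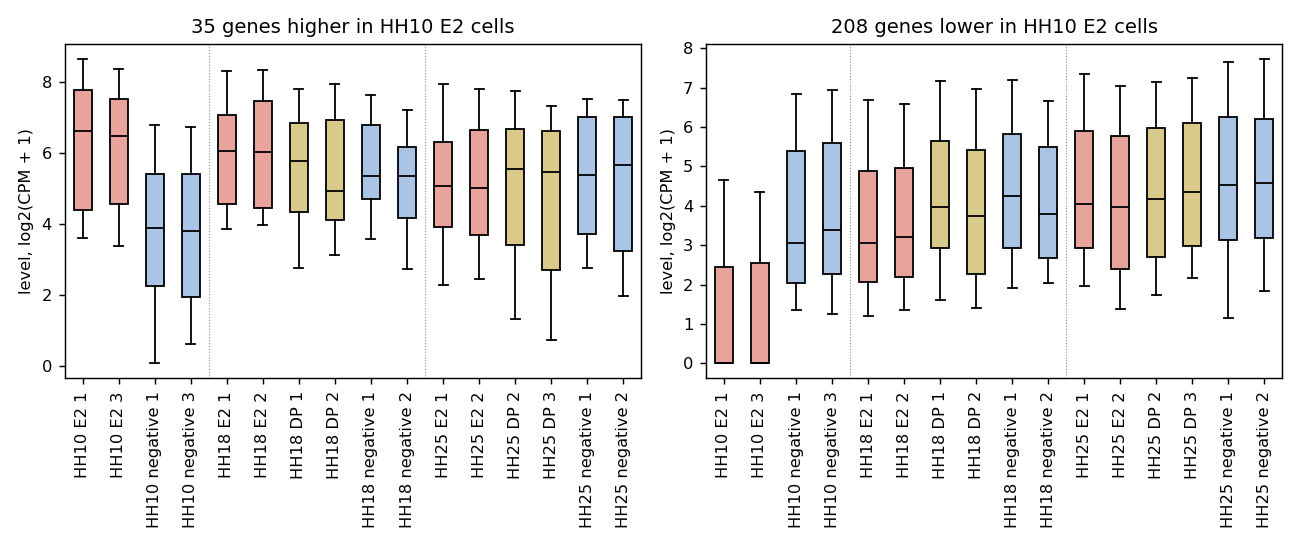
Levels, as log2(CPM + 1), of the 35 genes higher (left) and the 208 genes lower (right) in HH10 E2 cells, in all 16 libraries. Boxes span the quartiles with the median as a line, and whiskers run from the 10th to the 90th percentile; the HH10 libraries chose these genes, and in the later libraries the boxes of E2 and negative cells overlap.

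The change in the difference between stages was tested directly, though stage and time of electroporation differ together in this test. The E2-to-negative contrast of HH18 differed from that of HH10 in 118 genes (0.804%), and the contrast of HH25 differed in 284 genes (1.94%; edgeR, adjusted p below 0.05). Among the 208 lower genes, 72 had a higher contrast at HH18 (0.504% of tested genes did) and 111 at HH25 (1.6% did). Among the 35 higher genes, 3 had a lower contrast at HH18 (0.3% of tested genes) and 10 at HH25 (0.334%). Because the HH10 libraries that made the calls also enter these differences, their counts are given as a description. Without E2 library 1, E2 library 3, negative library 1 or negative library 3 the HH18 difference was called in 204, 207, 71 and 68 genes, and the HH25 difference in 308, 398, 129 and 121.

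Few genes were called in the same direction at all 3 stages. Of the 14676 genes tested, 7 were lower in E2 cells at each stage and 0 were higher by edgeR. Later calls as lower need counts in the later negative cells, so the levels there partly follow from the choice. The levels of these 7 genes ran from 0 to 28.0 CPM in HH10 E2 and from 0.403 to 83.5 CPM in HH10 negative libraries. They were between 1.03 and 51.1 CPM in HH18 E2 and between 35 and 964 CPM in HH18 negative libraries. In HH18 DP libraries they ran from 2.69 to 542 CPM. One of them on chromosome 2 (123250307 to 123260107), picked after its values were seen, had 0.0811 and 0.0204 CPM in HH10 E2 libraries 1 and 3 against 1.67 and 0.947 CPM in HH10 negative libraries 1 and 3. It stood at 1.08 and 5.56 CPM in HH18 E2 and at 378 and 964 CPM in HH18 negative libraries. Another on chromosome 23 (270344 to 284774), picked in the same way, had no count in HH10 E2 cells and 0.450 and 0.402 CPM in HH10 negative libraries 1 and 3. Its level was 23.0 and 8.29 CPM in HH18 E2, 537 and 542 CPM in HH18 DP, and 390 and 334 CPM in HH18 negative libraries.

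In the other direction, 0.0545% of all tested genes were called higher at HH18 and 1.84% at HH25. A pair of genes is described here, picked after the values were seen. It comes from the 6 of the 35 higher genes that were called higher once more at a later stage. The most abundant of them at HH10 lies on chromosome 26 (1889290 to 1965785). It had 352 and 182 CPM in HH10 E2 libraries 1 and 3 and 44.8 and 45.1 CPM in HH10 negative libraries 1 and 3. At HH25 it had 24.4 and 25.5 CPM in E2 and 5.01 and 6.73 CPM in negative libraries, a log2 fold change of 2.09 (edgeR adjusted p = 0.037). A gene on chromosome 5 (30599800 to 30627920) had 17.5 and 24.1 CPM in HH10 E2 and 5.18 CPM in both HH10 negative libraries. It was higher again at HH18, with 118 and 81.9 CPM in E2 and 26.8 and 21.0 CPM in negative libraries (log2 fold change 2.06, edgeR adjusted p = 0.041).

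A set of 3 genes was higher in E2 cells at HH10 and lower at both later stages, where 0.736% and 1.04% of tested genes were lower. They were singled out after their values were seen. The gene on chromosome 17 (minus strand, 992193 to 995196, with 7 exon intervals) had 39.2 and 19.1 CPM in HH10 E2 libraries 1 and 3, against 3.92 and 3.24 CPM in HH10 negative libraries 1 and 3. At HH18 it had 10.4 and 10.9 CPM in E2, 221 and 139 CPM in DP and 117 and 97.6 CPM in negative libraries. Against negative cells of the same stage, it was called higher in E2 cells at HH10 (log2 fold change 3.02 ± 0.45 SE, edgeR adjusted p = 0.0040). At HH18 it was called lower in E2 cells (-3.33, edgeR adjusted p = 0.0017).

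The gene on chromosome 22 (minus strand, 4616890 to 4618940, with 7 exon intervals) was at 2.68 and 5.32 CPM in HH10 E2 and at 0.0450 and 0.521 CPM in HH10 negative libraries 1 and 3. At HH18 it stood at 1.22 and 0.708 CPM in E2, at 126 and 234 CPM in DP and at 119 and 140 CPM in negative libraries. The gene on chromosome 3 (plus strand, 88727100 to 88737893, with 7 exon intervals) was at 3.33 and 4.63 CPM in HH10 E2 and at 0.721 and 0.284 CPM in HH10 negative libraries 1 and 3, and at 2.52 and 2.17 CPM in HH18 E2, 3.43 and 1.54 CPM in HH18 DP and 104 and 241 CPM in HH18 negative libraries. DP cells thus stood near or above the negative cells for the genes on chromosomes 17 and 22 at HH18, and near the E2 cells for that on chromosome 3. At HH25 DP cells stood far below the negative cells for all 3 genes. HH25 DP libraries had 3.68 and 2.88 CPM on chromosome 17, 10.2 and 5.1 on chromosome 22, and 9.08 and 5.72 on chromosome 3. HH25 negative libraries had 103 and 123.5, 303 and 209, and 151 and 113 CPM in that order. At HH10 all 3 genes had low levels in both populations compared with the later negative cells. Without E2 library 3 or negative library 1 the HH10 calls of the genes on chromosomes 22 (adjusted p = 0.076 and 0.13) and 3 (0.061 and 0.056) ended, and that on chromosome 3 also ended without negative library 3 (0.245). The difference between the HH18 and HH10 contrasts of each gene kept its direction in every alternative run for it. As these genes were chosen by opposite calls at HH10 and HH18, this largely follows from the choice.

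**Figure D5:**
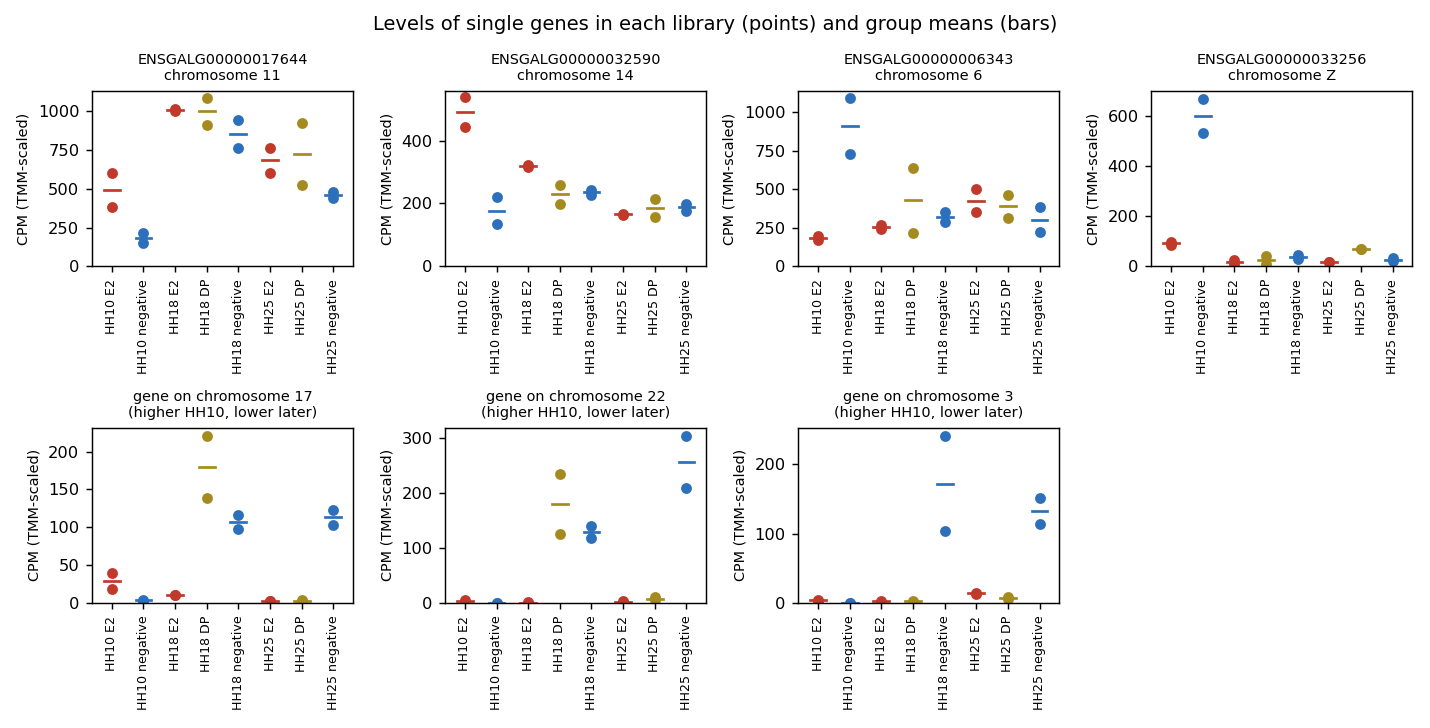
CPM of the 4 genes named by identifier and of the 3 genes that were higher in E2 cells at HH10 and lower later, in each library (points) of the 8 groups, with group means as bars; each panel has its own axis from 0. The 3 genes of the lower row reach over 90 CPM in HH18 and HH25 negative cells and stay under 40 CPM in E2 cells at all stages.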

How the data were processed

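The authors' deposited file gives whole-number read counts for each gene in 16 libraries, without normalization. The submitters' processing notes name STAR 2.4.2a, the featureCounts program of Subread 1.4.5 and DESeq2, with galGal5 as the build. Per the labels' protocols, the RNA of sorted cells was amplified in full-length form from low input and sequenced as 40 bp pairs; the labels do not state strand settings or duplicate removal. Column names give HH12 and library numbers 1 and 3 where the records give HH10 and 1 and 2, so columns were matched to groups and not to single records.

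All 16 libraries entered 1 edgeR 4.0.16 fit (R 4.3.3; quasi-likelihood test, TMM scaling, filterByExpr, Benjamini-Hochberg adjustment over 14676 of 24881 genes, of which 7511 had no count anywhere), as 8 group means, leaving 8 residual degrees of freedom. The code was tested on simulated data. A standard error is the size of the log2 fold change over the square root of F. The labels do not say whether a group's libraries stem from different embryos, so a p-value here reflects spread among libraries that may be technical. That spread was shared over all 8 groups and is not that of the HH10 libraries alone. Floors cover counting error only. Genes named by identifier are the 2 called genes per direction with the highest mean CPM in the group where they were higher (at least 5 CPM, libraries not overlapping). Members, lists and tests were chosen with earlier results of these data known; 16 lists of gene symbols could not be looked up. Alternatives included DESeq2 1.42.0, other scaling and filters, a stricter threshold, and each HH10 library left out.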

Additional observations from a re-analysis of the deposited data

Results flagged for a closer look

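The difference between E2 and negative cells was not the same at HH10 and later for the genes listed here, by a test of the difference itself (edgeR, adjusted p below 0.05). All values are log2 differences of the later contrast minus the HH10 contrast. Stage and time of electroporation cannot be told apart in them. All genes but ENSGALG00000006343 were chosen by opposite calls at HH10 and later in the same libraries. A called difference largely follows from that choice, so the values are a description. For the 3 genes higher in E2 cells at HH10 and lower later, HH18 minus HH10 was -6.35 on chromosome 17, -10.72 on chromosome 22 and -9.22 on chromosome 3, and HH25 minus HH10 was -8.59, -10.43 and -6.23 in the same order.

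A further 7 genes were lower in E2 cells at HH10 and higher at HH25. For the gene on chromosome 13 (15407661 to 15414929) HH18 minus HH10 was 3.52 and HH25 minus HH10 was 5.15. It had 53.8 and 73.3 CPM in HH10 E2 libraries 1 and 3 and 319 and 248 CPM in HH10 negative libraries 1 and 3, and 805 and 829 CPM in HH25 E2 against 80.3 and 125 CPM in HH25 negative libraries. The genes on chromosome 2 starting at 99859993 and 102313605 had differences of 5.78 and 2.29 for HH18 and of 7.63 and 4.72 for HH25. The gene on chromosome 3 starting at 13649735 had 9.93 for HH18 and 11.48 for HH25. That on chromosome 5 starting at 42229429 had 9.48 for HH18 and 17.29 for HH25. Those on chromosome 4 (20701889) and chromosome Z (67421571) had 16.43 and 15.54 for HH25. The last 4 had no count in HH10 E2 cells, so their fitted differences depend on the prior count and are no bound. The genes on chromosomes 4, 5 and Z were also at or near 0 in the HH25 negative libraries, with at most 0.0527 CPM. In the HH25 E2 libraries these genes had between 2.08 and 6.56 CPM. ENSGALG00000006343, lower at HH10, had a difference of 2.80 for HH25 (adjusted p = 0.037).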

How the results depend on the processing

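The 243 calls at HH10 kept their direction in each of the alternatives with a value for them. As the HH10 libraries of the groups did not overlap at these genes, their direction could hardly change. Without E2 library 3 the median log2 fold change of all tested genes was -0.33, against -0.05. The number of calls was within 1.5 times of 243 with size factors of the DESeq2 type, without a filter, with a stricter filter, with only E2 and negative libraries, and with all libraries thinned to 4032540 counts, an alternative chosen after seeing the data. DESeq2 called 793 genes (146 higher and 647 lower), and an adjusted p below 0.01 left 83 (6 and 77). Fitting the 4 HH10 libraries alone gave 0 calls (0 and 0; 1528 at an unadjusted p below 0.05). Leaving out 1 HH10 library gave 127 to 354 calls, 3 to 35 of them higher and 124 to 319 lower.

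The difference between the HH18 and HH10 contrasts was called in 118 genes, against 388 with DESeq2, 48 at an adjusted p below 0.01, 76 after thinning and 68 to 207 with 1 library left out. For HH25 and HH10 the count was 284, against 961, 56, 168 and 121 to 398.

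The higher genes of HH10 had a median log2 fold change of 1.03 at HH18, which was 0.89 with DESeq2 and without a filter (0.888 and 0.892), 0.62 at an adjusted p below 0.01, 0.92 with only E2 and negative libraries and after thinning (0.920 and 0.922), and 0.44 to 0.99 with 1 library left out. At HH25 it was 0.49, and it reversed to -0.18 and -1.25 without negative library 1 or 3; the range with 1 library left out was -1.25 to 0.60. The lower genes had -0.20 at HH25, which was -0.44 with DESeq2, -0.30 with size factors of its type, -0.29 at an adjusted p below 0.01, -0.32 with the replicate block, -0.36 with only E2 and negative libraries, -0.47 after thinning and -0.43 to -0.13 with 1 library left out. The cause was not tested.

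Numbers of libraries pair nothing by the labels. The replicate block for numbers 1 and 3 gave 253 calls (37 higher, 216 lower; 220 shared), and deviations from the group means of libraries numbered 1 correlated at 0.285 across genes. ENSGALG00000033256 had an adjusted p of 0.0501 with it. At equal depth the mean number of genes, E2 minus negative, was -2052, and -850 when at least 5 counts were asked for. Libraries of HH18 and HH25 were not left out in turn. Depth limits what a count of 0 says: 3 counts over both E2 libraries stand for 0.0489 CPM. That value covers counting error only and not the spread between the E2 libraries.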
